A study of Mus musculus with 9 samples.

Results

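Replication-dependent histone genes were examined in CD4+ T cells of mice on day 9 of experimental autoimmune encephalomyelitis (EAE), in which immunised mice develop an autoimmune attack on brain and spinal cord and which serves as a model of multiple sclerosis. The genes were chosen by symbol alone: every row of the count table that carries a clustered H1 name (H1f1 to H1f5) or a clustered core histone name (H2ac, H2bc, H3c or H4c with a number), leaving out pseudogenes. This gave 63 of the 39253 genes in the table, of which 5 encode linker histone H1, 17 H2A, 17 H2B, 12 H3 and 12 H4. Of the 9 libraries, 4 were from wildtype mice and 5 from mice labelled ERα KO (knockout of estrogen receptor alpha, a nuclear receptor encoded by Esr1). Batch 1 held wildtype replicates 1 and 2 (WT1, WT2) and knockout replicates 1, 2 and 3 (KO1, KO2, KO3). Batch 2 held wildtype replicates 3 and 4 (WT3, WT4) and knockout replicates 4 and 5 (KO4, KO5). All mice had EAE, and no unimmunised group was analysed here. The series title concerns ERα in dendritic cells, while the cells lacking the receptor, the way it was removed, and the tissue, sex and age of the mice are not stated in the labels. Nothing says that the samples came from separate animals, so p-values measure only the spread between these samples.

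Histones package DNA. An octamer of H2A, H2B, H3 and H4 forms the core of each nucleosome, and H1 binds the DNA between nucleosomes. The replication-dependent genes supply histones for newly copied DNA during S phase, and dividing cells such as activated T cells therefore carry their mRNA. These mRNAs end in a conserved stem-loop in place of a poly(A) tail. The stem-loop-binding protein (encoded by Slbp) holds that loop through processing, translation and decay, and NPAT (encoded by Npat) activates transcription of the clusters. Replacement variants such as H2ax, H2az1 and H3f3b are encoded elsewhere in the genome and are made through the cell cycle, mostly from polyadenylated mRNA. The protocols do not say whether poly(A) RNA was selected for these libraries.

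The stem-loop is shown first, because it is the element that sets these mRNAs apart. In GENCODE M21 transcripts (assembly GRCm38), 44 of the 63 genes had a model that ran at least 60 bases past the stop codon. The 16-base stem-loop pattern was GG, any 2 bases, CTTTT, any 1 base, AG, any 2 bases, CC, read on the mRNA strand. It was present after the stop codon in 38 of these 44. Among other protein-coding genes, 32 of 21838 (0.147%) held it anywhere in a transcript, coding part included, with no minimum model length. H2ac24 and H4c17, whose models end sooner, also held it, which gave 40 genes with a match at any model length. Of these 40, the form GGCTCTTTTCAGAGCC occurred in 24 genes of the H1, H2A, H2B and H3 classes, whereas all 10 stem-loops of H4 genes had one of 3 other forms (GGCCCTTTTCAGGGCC in 6, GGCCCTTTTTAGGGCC in 2 and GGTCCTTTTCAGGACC in 2). Sites from one gene of each class are shown 5′ to 3′, with the 16-base loop element in capitals.
H1f4: cccaaaGGCTCTTTTCAGAGCCacccac
H2ac23: aaaaaaGGCTCTTTTCAGAGCCatccac
H2bc8: cccaaaGGCTCTTTTCAGAGCCacccat
H3c6: caaaacGGCTCTTTTAAGAGCCacctcc
H4c4: accaaaGGCCCTTTTCAGGGCCactacc
H4c14: cctaacGGCCCTTTTTAGGGCCaaccac
In H1f4 the loop element began 41 bases after the stop codon, and in H4c4 it began 37 bases after it. The 6 genes with a long enough model and no match were H2bc21, H2bc23, H2bc24, H2bc4, H3c8 and H4c1, and the pattern was read only in the annotated models.

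The promoters of the most abundant gene in each class are shown as a description. Whether promoter sequence had a part in the genotype difference of batch 2, given below, was not tested. RefSeq promoters (GRCm38.p6, 250 bases before to 50 after the start) were matched for 58 of the 63 genes. Each stretch is the last 120 bases before the annotated start, 5′ to 3′ on the gene's strand, with CCAAT and TATAA on either strand in capitals (ATTGG and TTATA are the same motifs on the other strand).
H1f4, chr13:23622559-23622678, minus strand: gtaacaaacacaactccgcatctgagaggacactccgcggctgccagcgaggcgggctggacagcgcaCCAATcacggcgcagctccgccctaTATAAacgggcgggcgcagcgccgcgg
H2ac23, chr13:21810247-21810366, plus strand: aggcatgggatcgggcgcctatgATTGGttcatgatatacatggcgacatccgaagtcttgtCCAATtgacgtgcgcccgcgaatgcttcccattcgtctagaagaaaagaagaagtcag
H2bc24, chr13:21833623-21833742, plus strand: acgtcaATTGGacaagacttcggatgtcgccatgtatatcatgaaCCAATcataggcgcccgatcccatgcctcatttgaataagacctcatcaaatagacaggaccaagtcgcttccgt
H3c13, chr3:96268534-96268653, plus strand: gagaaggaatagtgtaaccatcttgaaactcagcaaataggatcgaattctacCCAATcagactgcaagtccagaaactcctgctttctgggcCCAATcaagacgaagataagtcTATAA
H4c4, chr13:23581448-23581567, plus strand: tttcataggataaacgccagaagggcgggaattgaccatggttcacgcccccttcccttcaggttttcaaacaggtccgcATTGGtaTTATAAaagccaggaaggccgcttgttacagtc
Over the full 300-base windows and both strands, CCAAT was present in every matched H1, H2A, H2B and H3 promoter and in 3 of 11 H4 promoters, against 41.1% of all 27025 promoters. TATAA was present in 4 of 5 H1, 15 of 17 H2A, 12 of 15 H2B, 5 of 10 H3 and 10 of 11 H4 promoters, against 28.0% of all. The octamer ATTTGCAT was found in 6 of 17 H2A and 7 of 15 H2B promoters and in none of the H1, H3 and H4 promoters, against 1.97% of all. Of the 63 genes, 53 lie on chromosome 13 and 10 on chromosome 3, and 10 H2A genes face an H2B gene head to head, with 164 to 281 bases between their starts.

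Library totals were 4925770 to 11297025 estimated counts in batch 1 and 45012999 to 69844645 in batch 2. CPM in the text means counts per 1e6 counts of the library. Cd3e and Cd4, which mark CD4+ T cells, stood at 925 CPM or more in every library. Esr1 stood at 1.45 and 1.68 CPM in WT3 and WT4 and at 0.145 and 0.264 CPM in KO4 and KO5, and at 4.88 to 16.3 CPM in the 5 libraries of batch 1, where the genotypes overlapped. The genotypes were thus apart in batch 2 only, where its log2 fold change did not pass the test (edgeR adjusted p = 0.618). Which cells lack the receptor and which part of the gene was deleted are not stated. Esr1 RNA in these samples therefore cannot check the labels. The 1501 sensory receptor genes, which T cells are not known to use, summed to 573 to 2508 CPM in batch 1, with KO3 highest, and to 25.6 to 36.9 CPM in the other batch. Ddx3y, which is Y-linked, stood at 93.6 to 107 CPM in all 4 libraries of batch 2 and at 55.4 CPM in KO3, and it was at 0 in the other 4 libraries of batch 1. The batch and the presence of Y-linked RNA therefore cannot be told apart, with KO3 as the exception. WT3 held 1820.4 CPM of 6 erythroid marker genes, against 96.9 to 141 CPM in the other libraries of batch 2. The 11 neutrophil markers summed to 344 to 1296 CPM in batch 1, 244 CPM in WT3 and 15.5 to 29.5 CPM in WT4, KO4 and KO5.

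In batch 2 the histone genes were lower in the knockout as a block. Summed over the 63 genes, they made up 6323 and 5299.5 CPM in WT3 and WT4 and 2617 and 3595 CPM in KO4 and KO5. Both wildtype libraries lay above both knockout libraries, and the wildtype mean was 1.87-fold higher (5811 ± 724 against 3106 ± 691 CPM, SD, n = 2 each). In bulk RNA, fewer cells of a type and less RNA per cell cannot be told apart. All 5 classes had the same order of groups. H2B and H2A showed the widest gaps, 2.12-fold and 2.03-fold, followed by H3 at 1.92-fold, H4 at 1.66-fold and H1 at 1.46-fold. In batch 1 the sums were 2769 and 1778 CPM in WT1 and WT2 and 2009.7, 2904 and 3768 CPM in KO1, KO2 and KO3. There the groups overlapped and the knockout mean was the higher, by 0.35 on the log2 scale (2274 ± 700.3 CPM, n = 2, against 2894 ± 879 CPM, n = 3). Without KO3 or any other single library of batch 1 that difference ran from 0.06 to 0.70, and without any single library of batch 2 the difference there ran from -1.15 to -0.69.

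**Figure D1:**
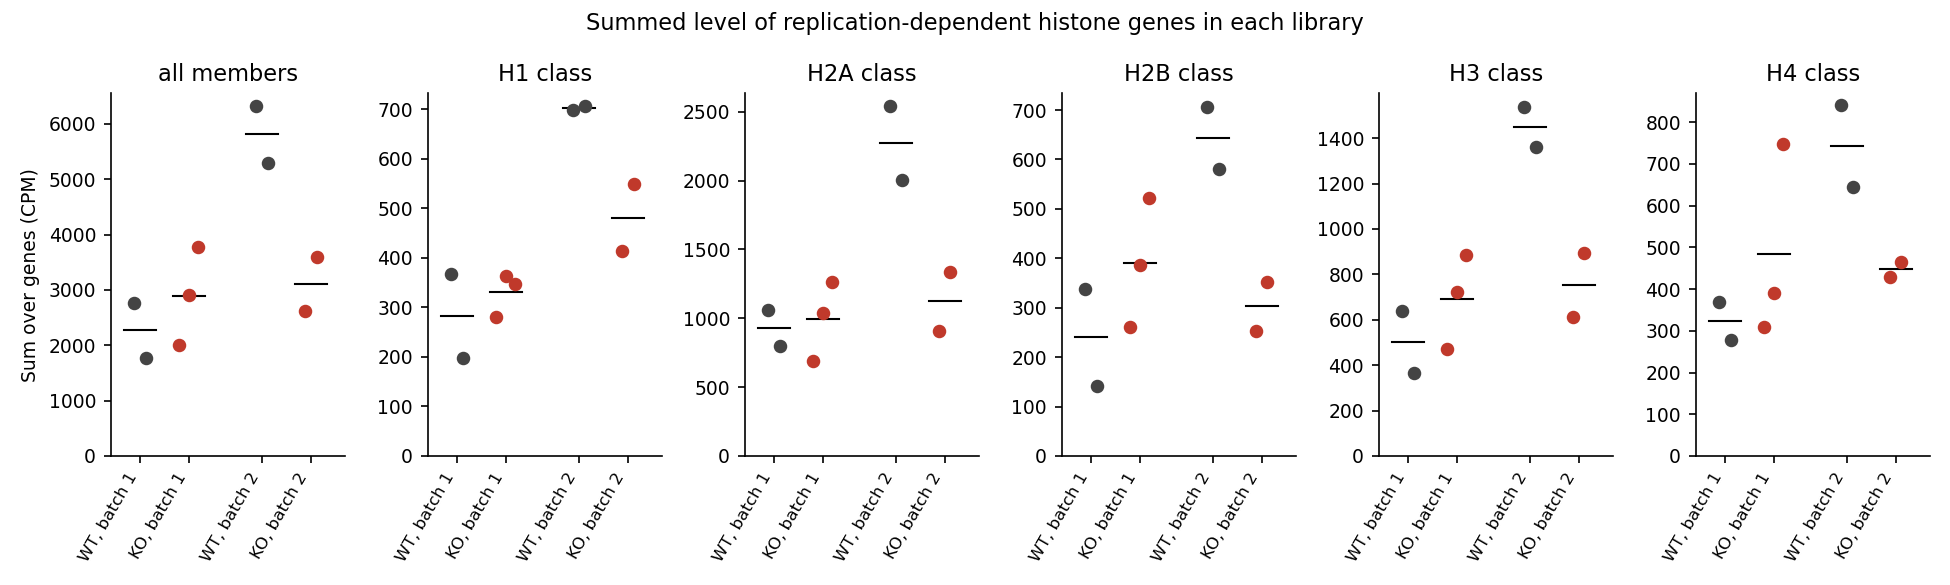
Summed CPM of all 63 genes and of each histone class (y axis, linear from 0) in each library, grouped on the x axis by genotype and batch; points are libraries (grey wildtype, red knockout) and lines are group means. In batch 2 both wildtype libraries (6323 and 5299.5 CPM over all genes) lie above both knockout libraries (2617 and 3595 CPM), while in batch 1 the groups overlap.

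Gene by gene, 60 of the 63 could be tested in batch 2 after the low-count filter, and 59 of the 60 had a negative log2 fold change (KO over WT). The median was -1.03, against -0.02 over all 15910 genes tested, of which 52.2% were negative. By class, the median was -0.60 for H1, -1.05 for H2A, -1.09 for H2B, -1.05 for H3 and -1.01 for H4. In 56 of the 60 genes both knockout libraries lay below both wildtype libraries, which was so for 20.5% of all genes tested. None of the 60 passed the edgeR test after adjustment over all genes, where 0.0% of all genes were called and the lowest adjusted p of a histone gene was 0.618. At an unadjusted edgeR p under 0.05, 50 of the 60 were lower and none higher, against 4.97% of all genes lower. DESeq2 called 38 of the 60, all lower, against 1.69% of all genes called lower, and limma-voom called 0. Without the erythroid-rich WT3, edgeR called 8 (all lower, with 1.09% of all genes called lower) and the median was -0.82. Without WT4 it called 31 (all lower, 4.63% of all genes) with a median of -1.22, and without the low-count filter it called 6 (all lower, 0.128% of all genes). With 1 wildtype library left, the spread comes from the knockout pair alone.

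**Figure D2:**
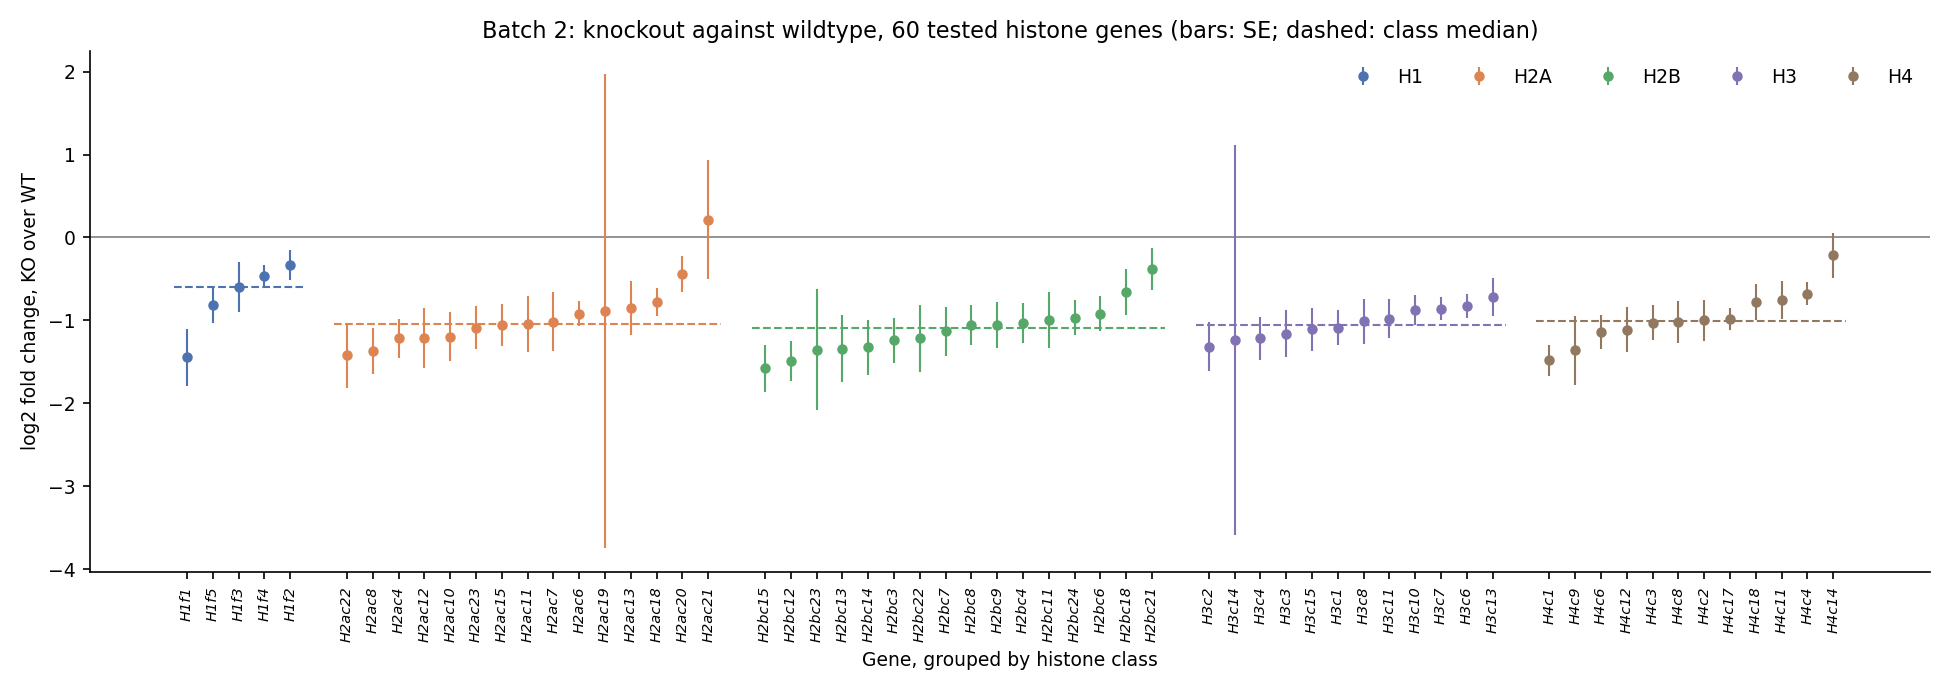
Log2 fold change of knockout over wildtype in batch 2 (y axis, edgeR) for the 60 tested genes, grouped by class and ordered within it on the x axis; bars are SE and dashed lines are class medians. All but H2ac21 lie below 0, most near -1, and H2ac19 and H3c14 have the widest errors.

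With all libraries, linker histone genes had the smallest median difference of the 5 classes in batch 2, although the difference of H1f1 was larger. The order of H1 and H4 rested on single libraries, since H4 had the smaller median without WT3 (-0.71 against -0.75) and without KO5 (-0.99 against -1.06). H1f4, the most abundant of them, stood at 291 and 316 CPM in WT3 and WT4, at 195 and 242 CPM in KO4 and KO5, and at 88.0 to 176 CPM in batch 1. H1f2 stood at 150.4 and 115 CPM in the wildtype pair of batch 2 and at 100.2 and 111 CPM in the knockout pair. H1f3 stood at 139 and 183 against 76.4 and 134 CPM. The knockout libraries were lower in each of these genes, but for H1f2 and H1f3 the nearest libraries of the groups, 115 against 111 CPM and 139 against 134 CPM, almost met. H1f5 was at 61.2 and 60.8 CPM in WT3 and WT4 and 27.2 and 42.0 CPM in KO4 and KO5. H1f1 stood at 58.1 and 32.1 CPM in WT3 and WT4 and 14.6 and 18.7 CPM in KO4 and KO5, the lowest log2 fold change of the class (-1.45 ± 0.35, SE, edgeR adjusted p = 0.618). For H1f2 it was -0.33 ± 0.18 (edgeR adjusted p = 0.713). In batch 1 H1f1 ranged from 9.63 to 18.9 CPM and H1f2 from 45.5 to 85.6 CPM, with WT2 lowest in both and the groups overlapping. H1f1 and H1f5 shared no 100-base window with a transcript of another gene, so their counts do not rest on a division of reads between copies.

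H2A genes carried the most counts of any class, 33.6% to 44.8% of all histone counts depending on the library. Per kilobase of coding sequence, averaged over the 9 libraries, H2ac23 was at 857, H2ac15 at 646 and H2ac18 at 629 CPM. H2ac23 stood at 683 and 514 CPM in WT3 and WT4 and at 228 and 336 CPM in KO4 and KO5. In batch 1 it stood at 294 and 173 CPM in WT1 and WT2 and at 169.7, 292 and 342 CPM in KO1, KO2 and KO3. The groups were apart in batch 2 and overlapped in batch 1, with a log2 fold change of -1.09 ± 0.26 (SE, edgeR adjusted p = 0.618) in batch 2. H2ac15 was at 513 and 424 CPM in WT3 and WT4 and 175 and 275 CPM in KO4 and KO5, beside 116 to 255 CPM in batch 1. H2ac18 was at 407 and 356 CPM against 192 and 251 CPM, beside 162 to 258 CPM in batch 1. The member with the lowest log2 fold change was H2ac22 (-1.42 ± 0.39, edgeR adjusted p = 0.625), with 55.2 and 34.6 CPM in WT3 and WT4 and 12.1 and 21.5 CPM in KO4 and KO5. The single positive value of the 60 belonged to H2ac21, at 0.471 and 1.33 CPM in WT3 and WT4 and 1.2 and 0.852 CPM in KO4 and KO5. Its groups overlapped and its log2 fold change of 0.22 ± 0.72 turned negative without WT3 or KO4.

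H2ac1 and H2bc1 encode testis histones and served as members that T cells are not known to use. Both were listed at 0 in all 4 libraries of batch 2, where 3 counts, taken as the floor, correspond to 0.043 to 0.0666 CPM. In batch 1, H2ac1 ranged from 0 to 1.11 CPM and H2bc1 from 0.232 to 0.711 CPM, with a floor of 0.266 to 0.609 CPM. Their levels in batch 1 were of the size of the mean sensory receptor gene, 0.382 to 1.67 CPM. In each library 57 or more of the 63 genes lay above that mean, 35 to 54 of them at 10 CPM or more.

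Among H2B genes, all 16 tested members had both knockout libraries of batch 2 below both wildtype libraries. H2bc24 stood at 128 and 116 CPM in WT3 and WT4 and at 50.3 and 74.1 CPM in KO4 and KO5. H2bc4 stood at 99.3 and 74.7 against 35.6 and 49.7 CPM, and H2bc8 at 75.2 and 55.2 against 26.7 and 36.1 CPM. The log2 fold changes of the 3 genes were close to each other, from -1.06 to -0.97. In batch 1 the 3 genes had their lowest value in WT2, at 29.9, 16.1 and 28.7 CPM, and their highest in KO3, at 123, 66.4 and 51.1 CPM. H2bc15 had the lowest log2 fold change of all 60 genes (-1.58 ± 0.28, SE, edgeR adjusted p = 0.618), with 82.3 and 54.6 CPM in WT3 and WT4 and 19.5 and 26.6 CPM in KO4 and KO5. H2bc21 had the highest of the class (-0.38 ± 0.25, edgeR adjusted p = 0.750). H2bc21 stood at 7.9 and 8.85 CPM in WT3 and WT4, 5.71 and 7.11 CPM in KO4 and KO5, and 6.29 to 7.04 CPM in batch 1 apart from 11.4 CPM in KO3.

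The 12 H3 genes had log2 fold changes in batch 2 between -1.32 and -0.71. H3c13 was the most abundant, at 360.2 and 323 CPM in WT3 and WT4 and 164 and 253 CPM in KO4 and KO5. In batch 1 it stood at 128 and 127 CPM in WT1 and WT2 and at 99.1, 133 and 237 CPM in KO1, KO2 and KO3, with KO3 highest. H3c15 stood at 299 and 279 CPM in WT3 and WT4 and 101 and 166 CPM in KO4 and KO5, beside 43.2 to 149.6 CPM in batch 1. H3c6 was at 139 and 144 against 70.1 and 89.1 CPM, with a log2 fold change of -0.83 ± 0.14 (SE, edgeR adjusted p = 0.618). Its groups were apart by more than either was wide. The lowest log2 fold change of the class was that of H3c2 (-1.32 ± 0.29, edgeR adjusted p = 0.618), at 77.8 and 49.4 CPM in WT3 and WT4 and 22.0 and 29.3 CPM in KO4 and KO5. In batch 1, H3c2 stood at 29.5 and 20.1 CPM in WT1 and WT2 and at 30.6, 40.3 and 35.1 CPM in KO1, KO2 and KO3, all 3 of them above both wildtype libraries.

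H4 genes all encode the same core histone, and 11 of the 12 had both knockout libraries of batch 2 below both wildtype libraries. H4c4 stood at 244 and 221 CPM in WT3 and WT4, at 132 and 158 CPM in KO4 and KO5, and at 88.4 to 193 CPM in batch 1. H4c1 had the lowest log2 fold change of the class (-1.48 ± 0.19, SE, edgeR adjusted p = 0.618), at 87.2 and 66.3 against 26.2 and 28.9 CPM. Both genes had groups that were apart in batch 2. H4c14 was the exception, at 195 and 118 CPM in WT3 and WT4 and 136 and 135 CPM in KO4 and KO5, so that the knockout values lay between the wildtype values. Its log2 fold change was -0.22 ± 0.27 (edgeR adjusted p = 0.890). With each library of batch 2 left out in turn it ran from -0.57 to 0.23, the latter without WT3. H4c14 lies on chromosome 3, shared no 100-base window with another gene, and in batch 1 stood at 75.3 to 91.3 CPM in every library but KO3, where it was at 298 CPM.

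**Figure D3:**
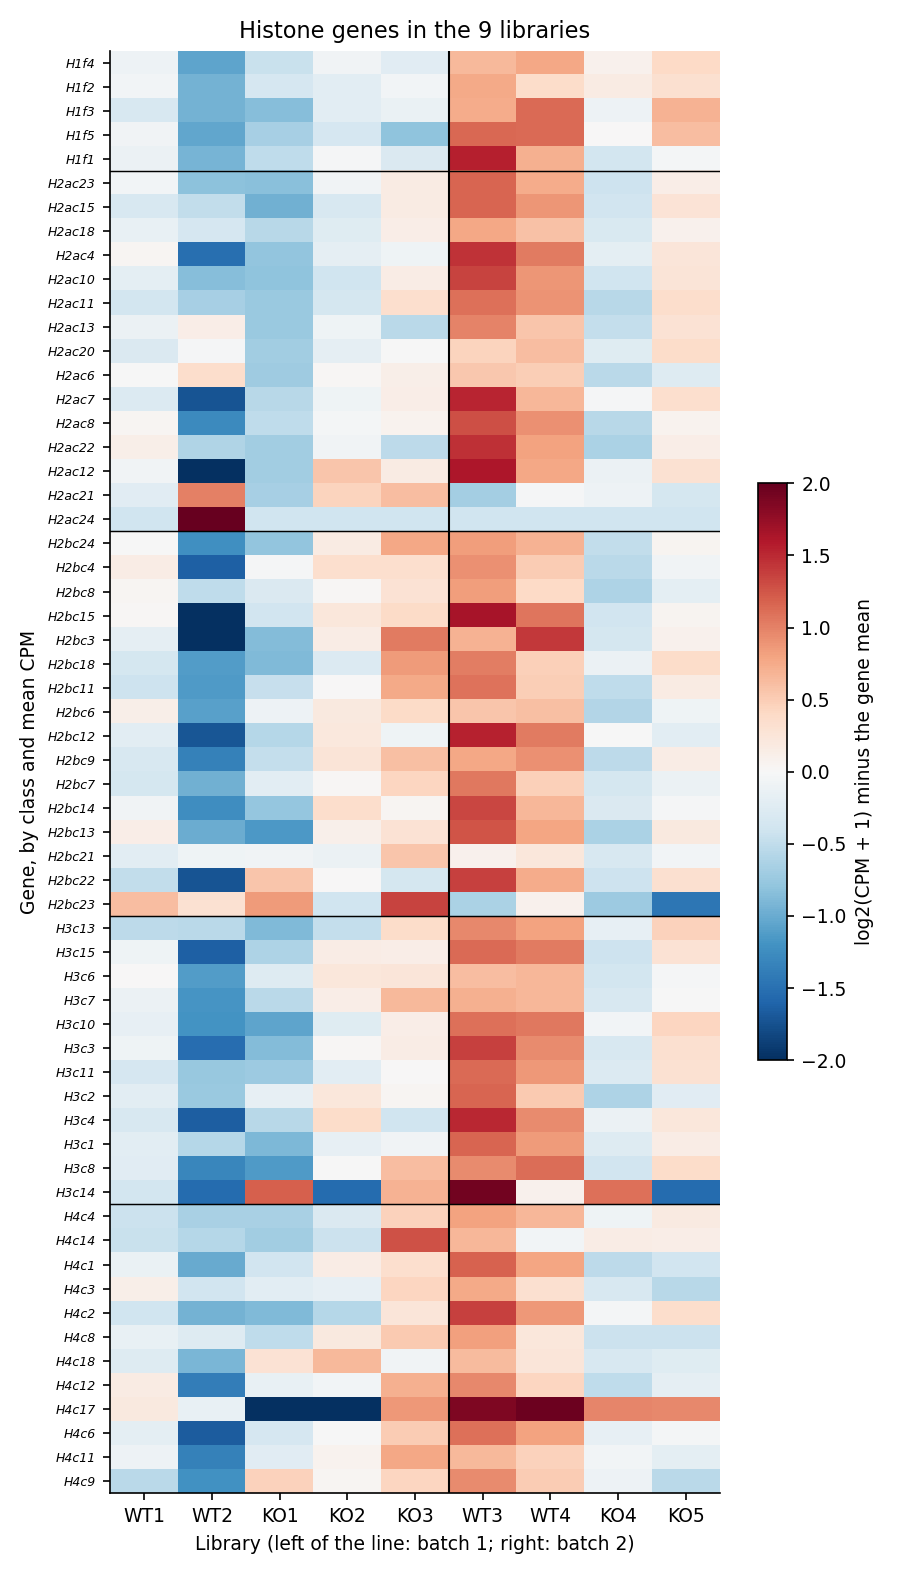
Level of the 60 genes with a mean of at least 1 CPM (rows, by class and mean level) in the 9 libraries (columns), as log2(CPM + 1) minus the mean of the gene; red is above and blue below that mean. WT3 and WT4 are red for most genes of all 5 classes, WT2 is blue for most, and H4c17 and H3c14 change between libraries of one group.

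Several of these values rest on how the authors' software divided reads between near-identical copies. The coding sequences of H2ac18 and H2ac19, H2ac23 and H2ac24, H2bc23 and H2bc24, and H4c17 and H4c18 are identical in the reference, and every 100-base window of H3c14 occurs in another gene. Single values of these genes are therefore uncertain. H2ac24 was listed at 11.1 CPM in WT2 and at 0 in the other 8 libraries, and H4c17 was at 0 in KO1 and KO2 and at 17.3 CPM in KO3. Their sums were steadier. H4c17 and H4c18 together stood at 64.1 and 59.7 CPM in WT3 and WT4 and at 32.8 and 33.7 CPM in KO4 and KO5. H3c14 and H3c15 together stood at 309.5 and 281 against 106 and 166 CPM. The summed histone level of the 38 genes with under 50% of their windows shared gave a log2 ratio of -0.81 in batch 2, against -0.90 for all 63.

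In batch 1 none of the 59 tested genes passed the edgeR test, where 0.126% of all 24600 genes did, and DESeq2 and limma-voom called none either. The median log2 fold change was 0.21, against 0.04 over all genes, with 44 of the 59 genes positive and 13224 of all 24600. Medians were 0.46 for H2B, 0.36 for H4 and 0.32 for H3, and 0.04 for H1 and -0.07 for H2A. The H1 median was -0.13 with the size factors of DESeq2, and the H2A median was 0.06 with upper-quartile scaling. The scaling of DESeq2 moved the median of all genes to -0.08 and the median of the histone genes to 0.03. No gene had every knockout library below every wildtype library (5.25% of all genes did), and 5 had every knockout library above (H2bc22, H2bc7, H3c2, H4c18 and H4c9), which was so for 10.9% of all genes. At an unadjusted edgeR p under 0.05, none of the 59 was lower, against 0.63% of all genes, and none was higher. The sign of the median turned with the wildtype library that was left out. Without WT2 the median was -0.27 with 46 of 59 genes negative, and without WT1 it was 0.96 with 54 of 60 positive and 3 genes called higher (0.12% of all genes were) and 1 lower (H2ac24, 0.108% of all genes). Without KO3 the median was 0.12.

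Over both batches, in a model with batch as a term, 52 of 59 genes were negative, against 48.6% of all 22197 genes. The median was -0.26, against 0.01 over all genes. Without KO4 only 30 of 59 were negative, with a median of -0.000906. None passed (edgeR, 0.00451% of all genes called; DESeq2 and limma-voom called none), and at an unadjusted edgeR p under 0.05, 3 genes, all H2A, were lower and none higher, against 1.16% of all genes lower. limma-voom gave a median of -0.71. The difference between the batches was tested directly as an interaction. Of 59 genes, 58 had a lower log2 fold change in batch 2 than in batch 1, as had 61.9% of all 22197 genes. The median difference was -1.41, against -0.19 over all genes. No histone gene passed (edgeR, 0.00451% of all genes called), and 38 had an unadjusted edgeR p under 0.05, all lower, against 6.61% of all genes. DESeq2 called 2 (H3c2 and H4c1, both lower, against 0.595% of all genes called lower) and limma-voom 0. The lowest adjusted p was shared by H4c1, H3c2 and H4c18 (interaction -1.99 ± 0.42, -1.78 ± 0.39 and -1.66 ± 0.44, SE, edgeR adjusted p = 0.451 for each). By class the median interaction was -1.75 for H2B, -1.54 for H3, -1.47 for H4, -1.20 for H2A and -0.69 for H1. Without WT2 the median over all classes was -0.74, and without WT1 it was -2.17.

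**Figure D4:**
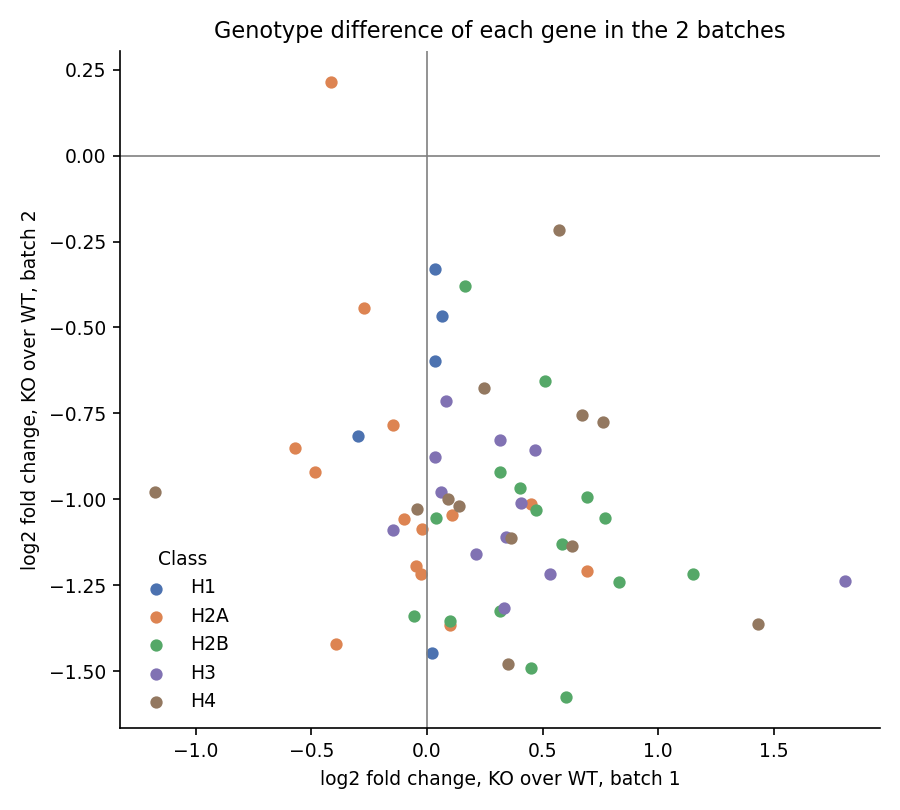
Log2 fold change of knockout over wildtype (edgeR) in batch 1 (x axis) and in batch 2 (y axis) for the 59 genes tested in both; each point is a gene, coloured by class, and the grey lines mark 0. Of them, 44 are positive in batch 1 and negative in batch 2, 14 are negative in both, and 1 (H2ac21) is negative in batch 1 and positive in batch 2.

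The histone genes also differed between the batches, and mainly in wildtype libraries. The wildtype sum was 2.56-fold higher in batch 2 than in batch 1, from 2.30-fold for H4 to 2.90-fold for H3, and the knockout sum 1.07-fold, from 0.78-fold for H2B to 1.45-fold for H1. In the model with both terms, edgeR called 23 of 59 genes higher in batch 2 and 1 lower (H2bc23), at an adjusted p under 0.05. Of all 22197 genes tested, 3724 (16.8%) were called higher and 10497 were called lower. The median log2 difference of the 59 was 0.93, against -0.76 over all genes. All 5 H1 genes were called higher, by 0.93 to 1.49 on the log2 scale, as were 10 of 14 H2A, 6 of 12 H3 and 2 of 12 H4 genes. No H2B gene was called higher, although 15 of 16 had a positive log2 difference, with a median of 0.80. The difference was also positive in 13 of 14 H2A genes and in all 12 H3 and all 12 H4 genes (H4 median 0.61). Of all 22197 genes, 8443 were positive. Within its class, H1f4 made up 41.6% to 48.2% of the counts in the 9 libraries, H2ac23 21.7% to 28.1% and H2bc24 15.6% to 23.7%. The shares of H3c13 (18.3% to 34.9%) and H4c14 (18.4% to 39.8%, highest in KO3) varied more. Batch also separated depth, sensory receptor counts, neutrophil markers and, KO3 apart, Ddx3y, and the part of these in the batch difference was not tested.

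Features that the choice of genes did not use were set beside the batch 2 values as a description. The 10 genes on chromosome 3 had a median log2 fold change of -0.68, against -1.06 for the 50 tested genes on chromosome 13. Genes with the stem-loop match had a median of -1.04 and the 6 without -1.02. The 16 genes with a transcript model of 1000 bases or more had a median of -0.92, against -1.06 for the others. Of the 10 head-to-head H2A and H2B pairs, 8 had both genes tested, and in all 8 both were lower in the knockout. Within these pairs the log2 fold changes differed by 0.05 to 0.52. H2ac8 and H2bc8, with 180 bases between their starts, had -1.37 and -1.06, and H2ac11 and H2bc11 had -1.05 and -0.99.

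Genes that act around histones were grouped by known function. In the DNA replication list, all 34 genes had a negative log2 fold change in batch 2, with a median of -0.67, and in the mitosis list all 21 did, with a median of -1.20. None passed the edgeR test, and 20 and 17 had an unadjusted edgeR p under 0.05. DESeq2 called 8 and 14. In batch 1 the medians of these 2 lists were -0.03 (18 of 34 negative) and 0.04 (8 of 21 negative). All 34 and all 21 genes had a lower log2 fold change in batch 2 than in batch 1. The median interaction was -0.76 and -1.42, against -1.41 for the histone genes, with 0 called by edgeR. Of 10 replacement and polyadenylated variants, 8 were negative, with a median of -0.35 and 0 called (2 at an unadjusted p, 1 by DESeq2). The 21 tested genes for making histone mRNA had a median of -0.04 (13 negative, 0 called by edgeR, 3 at an unadjusted p, 1 by DESeq2). The 22 histone chaperones and assembly factors had a median of -0.08 (17 negative, 0 called, 5 at an unadjusted p, 2 by DESeq2). Npat stood at 78.5 and 79.6 CPM in WT3 and WT4 and at 78.4 and 75.1 CPM in KO4 and KO5. Slbp stood at 67.2 and 55.3 against 42.6 and 45.5 CPM. Mki67, a marker of cycling cells, was at 2155 and 1036 CPM in WT3 and WT4 and 441 and 708 CPM in KO4 and KO5, and Mcm2, a subunit of the replicative helicase, at 94.6 and 63.0 against 65.0 and 56.8 CPM. The groups were thus apart for Slbp and Mki67, almost met for Npat (78.5 against 78.4 CPM) and overlapped for Mcm2.

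The histone sum was divided by the sum of each of these lists in the same library. Over the replication list, the ratio was 3.72 and 3.95 in WT3 and WT4, 2.75 and 3.35 in KO4 and KO5, 2.76 and 2.57 in WT1 and WT2, and 2.27, 2.60 and 4.82 in KO1, KO2 and KO3. In batch 2 the wildtype ratios lay above the knockout ratios, and in batch 1 the groups overlapped. Over the mitosis list it was 1.86 and 2.83 in WT3 and WT4 and 3.23 and 2.81 in KO4 and KO5, and the groups overlapped. Early response and heat shock genes of a dissociation list also moved with genotype in batch 2. They summed to 8018 and 5128 CPM in WT3 and WT4 and 3032 and 2493 CPM in KO4 and KO5. All 10 were lower in the knockout (median -1.26, edgeR called 0, DESeq2 7). In batch 1 they summed to 3907 and 4697 CPM in WT1 and WT2 and 7241, 9116 and 1969 CPM in KO1, KO2 and KO3. There 7 were higher and 3 lower (median 0.45, edgeR called 0). In batch 2, erythroid markers had a median of -2.74 (all 6 lower, edgeR and DESeq2 called 0) and neutrophil markers one of -3.84 (9 of 10 lower, edgeR and DESeq2 called 0), with most of their counts in WT3. Monocyte and macrophage markers summed to 102 and 158 against 74.6 and 86.4 CPM, and the CD4 T cell list to 3852 and 4137 against 4435 and 4419.9 CPM. The part of these markers in the histone difference was not tested, and the difference without WT3 is given above.

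**Figure D5:**
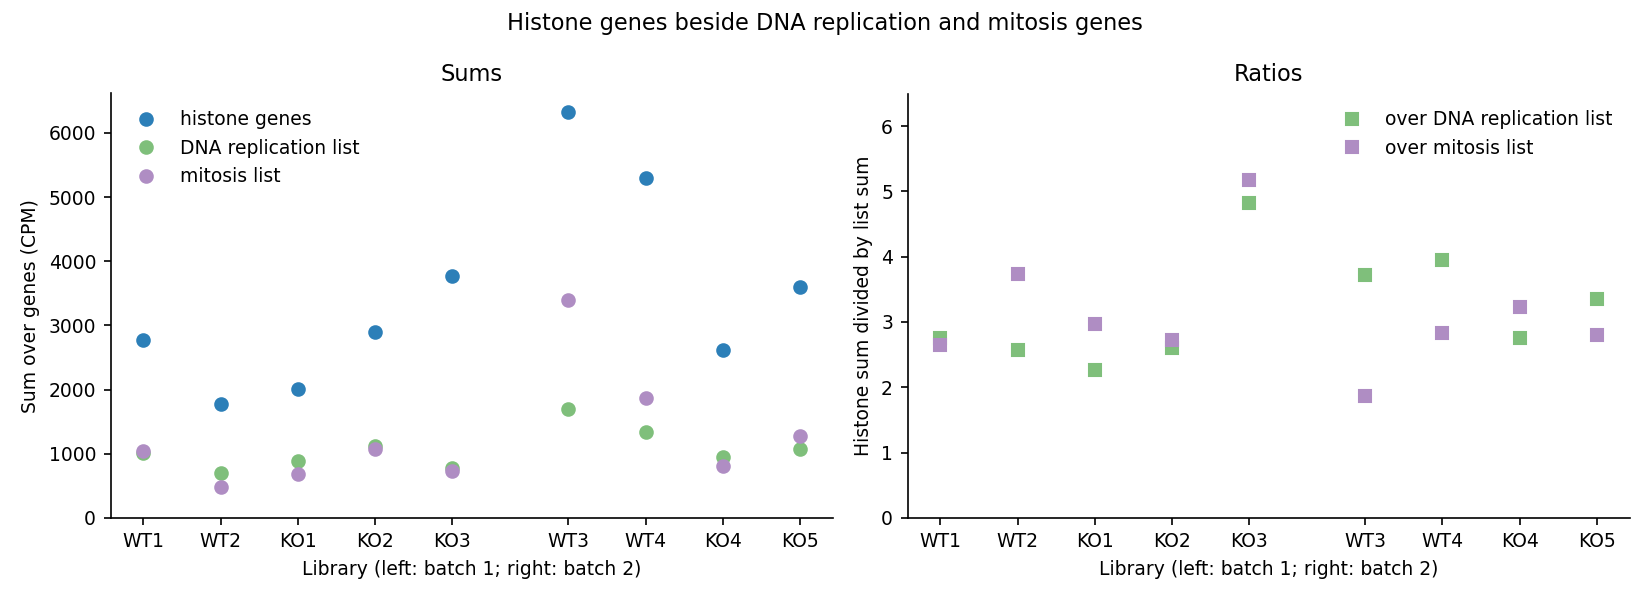
Left, summed CPM (y axis, linear from 0) of the histone genes, the DNA replication list and the mitosis list in each library (x axis). Right, the histone sum divided by each list sum; over the replication list WT3 and WT4 (3.72 and 3.95) lie above KO4 and KO5 (2.75 and 3.35), and KO3 has the highest ratio over both lists.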

How the data were processed

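RNA was measured in 9 samples of CD4+ T cells, extracted as total RNA, made into libraries with an Ovation kit and read as 100-base single ends, per the labels' protocols. The values deposited by the authors are expected counts (estimated counts, not whole numbers) per gene in 1 table, and the submitters' processing notes name Salmon 1.2.0, R 4.0.3 and GRCm39 without their roles; annotation release, strand setting and length scaling were not found in those notes or the labels. Counts were rounded and fitted over the whole table with edgeR 4.0.16 (R 4.3.3; TMM, robust quasi-likelihood, default filter with minimum count 10 and total 15, Benjamini-Hochberg over all genes tested, threshold 0.05), over both batches with batch as a term, within each batch and for the interaction. The SE was derived from the F statistic. Alternatives were DESeq2 1.42.0, limma-voom 3.58.1, upper-quartile scaling, no filter, no batch term, a replicate block and leaving out each library. Limits for counts of 0 cover counting error only.

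Members, gene lists and marker lists were chosen with earlier results of these data known. Genes named are every H1 gene, the 3 most abundant of each other class, the testis genes H2ac1 and H2bc1, the lowest and highest of each class in batch 2, and Slbp, Npat, Mki67 and Mcm2. Library checks, split copies, pairs and exceptions were named after their values were seen. Sequences came from GENCODE M21 and RefSeq (GRCm38); with the table on another build, no coordinates were joined to it.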

Additional observations from a re-analysis of the deposited data

Results flagged for a closer look

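Samples far from the rest of their genotype were looked for among 64 groups of 4 or 5 samples, of which chance alone marks about 1 in 20. The 4 cases found are near that rate, and each group joined both batches of its genotype. In 3 of the 4 cases found the sample was KO3, the library of batch 1 with Ddx3y and the highest sensory receptor sum. H4c14 stood at 298 CPM in KO3, against 75.3 to 136 CPM in the other 4 knockout libraries. H2bc21 stood at 11.4 CPM in KO3, against 5.71 to 7.11 CPM in the others. The histone sum divided by the mitosis list was 5.18 in KO3, against 2.72 to 3.23 in the others. The fourth case was H2ac1, a testis histone gene, at 0.206 CPM in WT2 and 0 in the other 3 wildtype libraries, which is under the floor of 0.609 CPM for that library. What sets KO3 apart was not tested.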

How the results depend on the processing

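In batch 2, 0 histone genes were called by edgeR, 38 with DESeq2 and 6 without the low-count filter, and 0 to 31 when each library was left out in turn; the median log2 fold change ran from -1.28 to -0.82 over those fits. In batch 1 the median was 0.11 without the low-count filter and ran from -0.27 to 0.96 with a library left out. At an unadjusted edgeR p under 0.05, without the filter, 1 of 63 was lower (H2ac24) and 1 higher, against 0.751% of all genes lower. Without KO3, 1 of 59 was lower (H4c17) and 2 higher, against 1.11% of all genes lower. Reads of H2ac24 and H4c17 are divided with an identical copy. Over both batches the count of genes called stayed at 0, while the median was -0.71 with limma-voom and ran from -0.75 to -0.000906 with a library left out. For the interaction, DESeq2 called 2 (0.595% of all genes called lower), and the median ran from -2.17 to -0.74 with a library left out. Without KO3, 23 of 60 were lower there at an unadjusted edgeR p under 0.05 and 1 higher (H4c17), against 4.85% of all genes lower. Between the batches, 47 of 63 genes were called without the filter (43 higher and 4 lower in batch 2), against 24 with it (23 higher and 1 lower). Without the filter, 71.7% of all 36179 genes were lower in batch 2, with a median of -3.76. At an unadjusted edgeR p under 0.05, 4 of the 63 histone genes were lower and 45 higher there, against 59.5% of all genes lower. The shares of all genes called higher or lower without the filter are not given here. The 43 genes called higher and the 4 called lower therefore have no matching background. Among the genes named by the rule, signs turned with a library left out for the batch 1 sums of H1 (-0.15 to 0.74) and H2A (-0.10 to 0.32), for H4c14 (-0.57 to 0.23) and H2ac21 (-0.33 to 1.08) in batch 2, and for H1f2 (-1.19 to 0.14) and H2ac21 (-0.30 to 1.45) in the interaction. Of the other genes, H3c14 turned positive in batch 2 without WT3, and H2ac19 did so without WT4, without KO4 and with limma-voom. The cause was not tested. Deviations from the mean of the same genotype and batch had correlations of 0.36, -0.39, -0.09 and -0.06 between same-numbered samples. The 2 wildtype libraries of a batch deviate as exact opposites, and WT3 and KO3 belong to different batches. Whether the numbers pair the samples therefore cannot be told from these values. With a replicate block 0 genes were called, with a median of -0.22. The lists of genes with the same protein were not summed first, since no protein table was used here. Batch 1 libraries were shallower than those of batch 2, which limits what they can show for genes of few counts.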
